A study of Mus musculus with 15 samples.

Results

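S1PR2 confinement signalling and RGS proteins were followed through 10 genes of the 54838 in the deposited count table: S1pr2, Gna13, Arhgef1, Gcsam, Rgs1, Rgs2, Rgs10, Rgs13, Rgs14 and Rgs16. They were taken by gene name, and all 10 passed the filter on low counts, which kept 17144 genes. Expression was measured by RNA sequencing in 15 libraries of wild-type (WT) mouse splenic B cells, 3 libraries lettered A, B and C in each of 5 groups. Activated naive B cells came from 5 days of culture, with fresh medium and cytokines on day 0 and day 3, under one of the stimuli named in the titles: CD40 (antibody at 5 µg/ml with mouse IL-4 at 80 ng/ml), CpG (an oligonucleotide that triggers Toll-like receptor signalling, at 2 µM) or LPS (lipopolysaccharide, at 25 µg/ml). The labels leave unsaid whether IL-4 was also present with CpG or LPS. Germinal centre (GC) B cells and naive B cells were sorted from spleens of male mice aged 3 months, 9 days after immunisation with sheep red blood cells, an antigen that induces germinal centres. All 5 groups share the WT genotype, the age of 3 months and the immunisation. The labels do not tie a letter to an animal or mention pooling, and the p-values therefore cover only the spread among these libraries, which may be technical. The sample labels name no culture for naive and GC cells, which are treated here as freshly sorted, although the series text could be read otherwise.

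S1PR2 is a receptor for the lipid sphingosine-1-phosphate (S1P). It acts through the G protein subunit GNA13 and the exchange factor ARHGEF1 on the small GTPase RHOA, which restrains migration and AKT signalling and keeps germinal centre B cells clustered in the follicle. RGS proteins speed up GTP hydrolysis on G protein alpha subunits, so they shorten signals from chemokine receptors and other G protein-coupled receptors. In human lymphomas of germinal centre origin, the genes for S1PR2 and GNA13 are known targets of loss-of-function mutations.

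The libraries held 25397624 to 36272197 counts each. The B cell markers Cd79a, Cd79b and Ms4a1 each averaged at least 1 CPM (counts per 1000000, with totals scaled by TMM factors) in every group, and 5 GC markers that are not among the 10 genes summed to 993 to 1645 CPM in activated libraries, 2910 to 3073 CPM in GC libraries and 82.7 to 137 CPM in naive libraries. Naive libraries A and B had fewer genes with a count, at 13920 and 11523, than naive library C with 18866 and the activated and GC libraries. Summed immediate early and handling genes ran to 13732, 12148 and 5610 CPM in naive libraries A, B and C, above all activated libraries (1146 to 1689 CPM) and GC libraries (1165 to 1176 CPM). The 12 T cell markers summed to 33.5 to 45.7 CPM in activated, 163 to 175 CPM in GC and 59.8 to 83.1 CPM in naive libraries, mostly from Lck. Cd3e and Cd8a had 0 counts in GC and naive libraries. In naive library A, Cd3d, Cd3g, Cd4, Cd8b1, Cd5, Trac, Trbc1 and Trbc2 ran from 1.18 to 4.07 CPM, and Icos was at 0. In naive library B, Cd3g had 3.47 CPM and all others but Lck were at 0. Erythroid and myeloid sums were highest in naive library B, at 298 and 48.4 CPM.

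Of the 10 genes, S1pr2, Gna13, Gcsam, Rgs2 and Rgs13 were higher in GC over naive B cells and Arhgef1 and Rgs14 were lower, while Rgs1, Rgs10 and Rgs16 did not pass the test (34.5% of all genes tested passed). Activated cells had little of the GC transcripts: S1pr2 averaged 6.64 CPM with CD40, 6.19 CPM with CpG and 6.04 CPM with LPS, against 319 CPM in GC cells, Gcsam reached at most 5.67 CPM and Rgs13 had 0 counts in all 9 libraries. Rgs2, Rgs14 and Arhgef1 were lower in activated than in naive cells with each stimulus, and S1pr2 and Rgs16 were higher, where 33.6% to 34.1% of all genes passed in either direction. No gene of the 10 passed between the stimuli (0% of all genes passed), and 7 of the 9 tested passed between the letters (44.0% of all genes). In such bulk libraries, fewer cells of a type and less RNA per cell cannot be told apart.

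**Figure D1:**
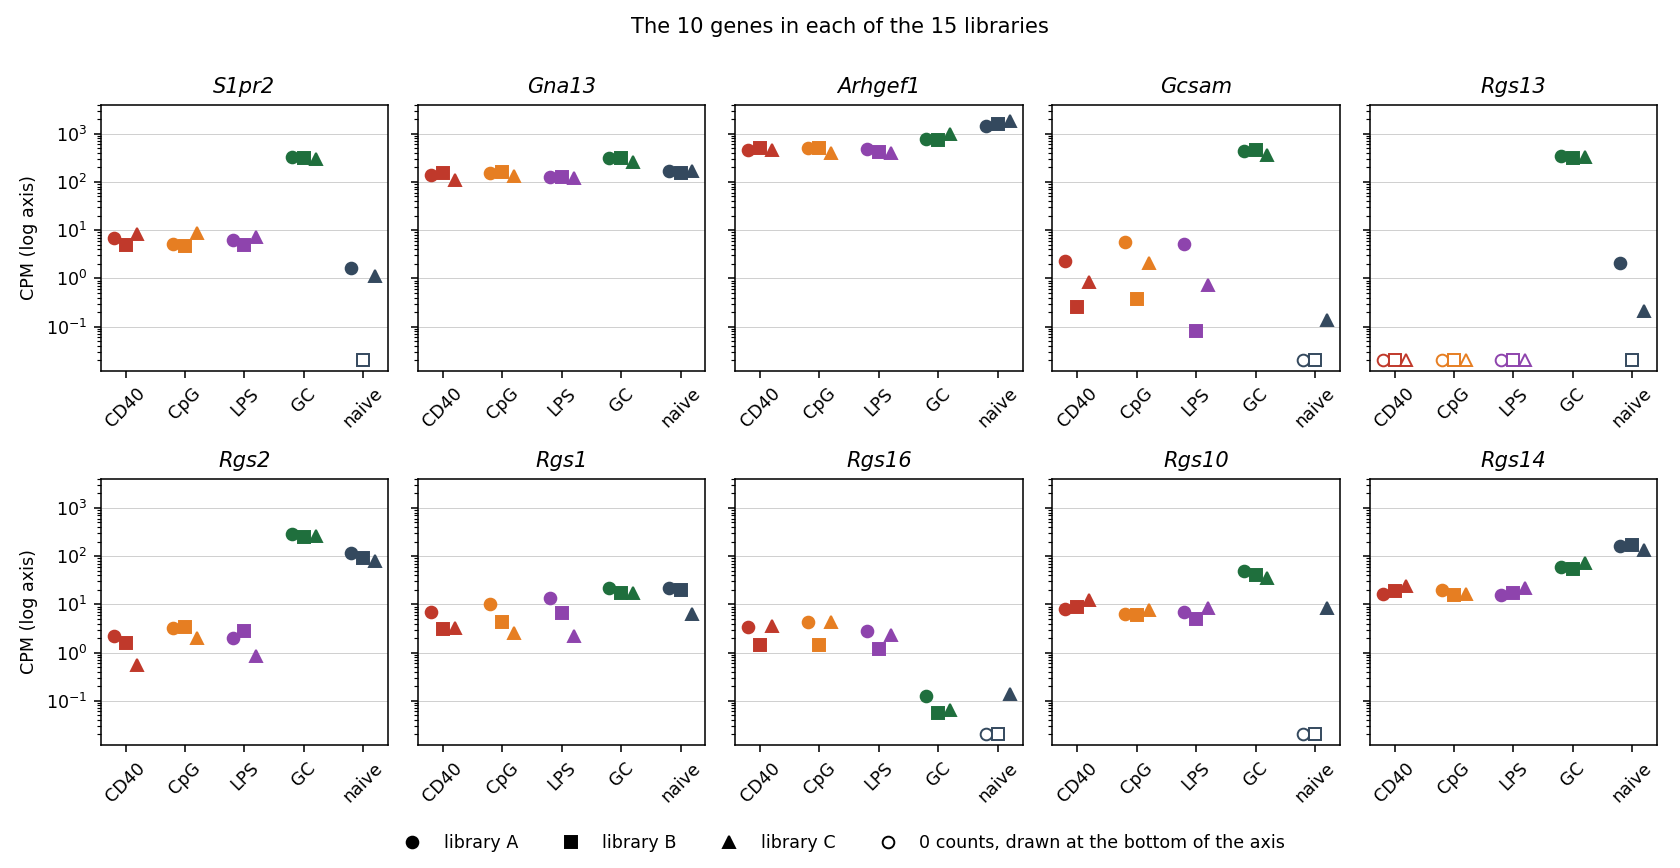
CPM of each gene on a log axis in CD40-, CpG- and LPS-activated, GC and naive libraries; each point is 1 library, marker shape gives its letter, and open markers at the bottom are libraries with 0 counts. S1pr2, Gcsam and Rgs13 sit above 300 CPM in the 3 GC libraries and at or below 8.67 CPM in all others.

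S1pr2 (ENSMUSG00000043895, chr9:20962361-20976781, minus strand, GRCm38), the receptor itself, reached 336, 319 and 304 CPM in GC libraries A, B and C, against 1.65, 0 and 1.11 CPM in naive libraries. The 3 GC libraries lay close together and far above every naive library. The log2 fold change of GC over naive was 8.41 ± 0.79 (SE, n = 3 each, edgeR adjusted p = 4.7e-06), and 9.16 without naive library A. The activated libraries lay between the sorted populations, with 6.95, 4.84 and 8.13 CPM with CD40, 5.23, 4.66 and 8.67 CPM with CpG, and 6.13, 4.95 and 7.04 CPM with LPS. All 9 were above every naive library and below every GC library. Against naive cells S1pr2 was higher by log2 2.82 ± 0.65 with CD40, 2.72 ± 0.65 with CpG and 2.69 ± 0.65 with LPS (edgeR adjusted p = 0.0053, 0.0065 and 0.0068). Against GC cells it was lower, with log2 folds of -5.59, -5.69 and -5.72. Fitted on the 6 libraries of each pair alone, where fewer spread estimates are shared, the calls against naive were lost (adjusted p = 0.22, 0.24 and 0.24), and the values without naive library A were 3.60, 3.50 and 3.47.

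Gna13 (ENSMUSG00000020611, chr11:109362831-109401369, plus strand) encodes the alpha subunit that S1PR2 couples to. It measured 306, 317 and 264 CPM in GC libraries and 165, 156 and 171 CPM in naive libraries, groups that did not overlap. The rise in GC cells was modest beside that of the receptor, at log2 0.85 ± 0.14 (adjusted p = 0.00027, edgeR). In activated cells Gna13 ran from 109 to 160 CPM over the 9 libraries. It was lower than in GC cells with each stimulus, by log2 folds of -1.14, -0.97 and -1.24 for CD40, CpG and LPS. Against naive cells only LPS passed the test, at log2 -0.39 ± 0.14 (edgeR adjusted p = 0.042), and that call was lost when any one of LPS libraries A, B or C, naive library A or naive library C was left out (adjusted p up to 0.19). A gene on the opposite strand, Gm11696, overlaps Gna13 and held 0.892 to 17.9 CPM. Whether counting used strand is not given in the sources used here.

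Arhgef1 (ENSMUSG00000040940, chr7:24902912-24926594, plus strand), the RHOA exchange factor that carries an RGS-type domain for the alpha subunit, went the other way. GC libraries had 766, 736 and 996 CPM, against 1424, 1590 and 1814 CPM in naive libraries. Activated libraries were lower again, between 401 and 512 CPM. The 3 states were ordered without overlap, activated below GC below naive. The log2 fold was -0.95 ± 0.16 for GC over naive (adjusted p = 0.00041) and -1.77, -1.76 and -1.88 for CD40, CpG and LPS over naive, with SE of 0.17 each (edgeR adjusted p at most 2.4e-06). Against GC cells the activated values were -0.82, -0.81 and -0.93.

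Gcsam (ENSMUSG00000022659, chr16:45610380-45622867, plus strand) encodes a germinal centre adaptor whose human counterpart slows lymphocyte movement through RHOA. It stood at 432, 465 and 358 CPM in GC libraries A, B and C, against 0, 0 and 0.139 CPM (4 counts) in naive libraries. The fitted log2 fold of 13.13 ± 1.75 (adjusted p = 9.3e-05, edgeR) rests on those 4 counts and was 12.48 without naive library A. Without naive library C the naive side has 0 counts, and the fitted 16.70 then depends on the prior count and is no measure of size. With CD40 it had 2.30, 0.255 and 0.852 CPM in letters A, B and C, with CpG 5.67, 0.370 and 2.04 CPM, and with LPS 5.15, 0.0811 and 0.721 CPM. Library A was highest and library B lowest under every stimulus, and the LPS B library, with 2 counts, overlapped the naive range. Activated over naive passed the test with CpG (log2 5.86 ± 1.73, adjusted p = 0.021) and LPS (5.42 ± 1.76, adjusted p = 0.032) and not with CD40 (4.62 ± 1.85, adjusted p = 0.074). The CD40 value passed with the letter as a replicate block (edgeR adjusted p = 0.040) and in DESeq2 (0.0072). The CpG call was lost without CpG library A, naive library A or naive library B (adjusted p of 0.081, 0.074 and 0.083), and the LPS call without LPS library A, naive library A or naive library B (0.21, 0.10 and 0.11), in edgeR. The CpG value without CpG library A was 4.79 and the LPS value without LPS library A was 3.30. Without naive library C, against 0 counts, the fitted values were 9.39 and 8.95. Without naive library A they were 5.24 and 4.80, and without LPS library B the LPS value was 6.02. Against GC cells Gcsam was lower with each stimulus, by log2 folds of -8.51, -7.27 and -7.71, and by -9.64, -8.44 and -9.93 without that stimulus's library A.

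Rgs13 (ENSMUSG00000051079, chr1:144138654-144177372, minus strand), a small RGS protein known from germinal centre B cells, had 350, 312 and 325 CPM in GC libraries, against 2.03, 0 and 0.208 CPM in naive libraries. All 9 activated libraries had 0 counts, which allows up to 0.0832 to 0.122 CPM per library for counting error alone. The log2 fold of GC over naive was 8.70 ± 1.25 (adjusted p = 0.0025, edgeR) and was 11.57 without naive library A, which held 74 of the 80 naive counts. Against a floor of 3 counts over each activated group, Rgs13 was at least 9808-fold, 9737-fold and 9980-fold lower with CD40, CpG and LPS than in GC cells (edgeR adjusted p of 0.0016, 0.0015 and 0.0016). Set against the naive mean of 0.747 CPM, the same floor gives 22.3-fold, 22.1-fold and 22.7-fold lower. That mean rests mostly on naive library A, and naive library B had 0 counts like the activated libraries. These folds are therefore no lower bound for naive cells in general, and the test was not passed (edgeR adjusted p = 0.080, 0.081 and 0.078).

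S1pr2, Gcsam and Rgs13 had the largest called increases in GC over naive cells of the 10 genes. The 250 bases upstream of the RefSeq starts (GRCm38.p6) of S1pr2 and Rgs13 are therefore shown, read 5′ to 3′. The Gcsam window is not shown, because its end lies inside the gene as GENCODE M21 places it. Capitals mark matches on either strand to the E-box CANNTG, which bHLH factors bind, and to the cyclic AMP response element TGACGTCA, which did not overlap an E-box.
S1pr2, chr9:20976794-20977043, minus strand: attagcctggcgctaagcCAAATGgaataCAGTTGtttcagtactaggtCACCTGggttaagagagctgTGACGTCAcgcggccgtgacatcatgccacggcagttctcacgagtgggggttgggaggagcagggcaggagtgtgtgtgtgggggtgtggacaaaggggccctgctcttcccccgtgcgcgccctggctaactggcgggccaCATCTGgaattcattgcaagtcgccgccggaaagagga
Rgs13, chr1:144177373-144177622, minus strand: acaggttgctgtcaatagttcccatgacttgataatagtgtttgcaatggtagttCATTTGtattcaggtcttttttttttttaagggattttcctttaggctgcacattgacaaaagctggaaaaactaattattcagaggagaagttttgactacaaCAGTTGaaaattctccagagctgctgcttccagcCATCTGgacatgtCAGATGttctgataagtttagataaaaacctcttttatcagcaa
The S1pr2 stretch held 4 E-boxes and the TGACGTCA element, and Rgs13 held 4 E-boxes. Of 32851 mouse promoters of this length, 66.2% held at least 1 E-box and 1.55% held TGACGTCA, so an E-box match is common and the palindrome is not. The octamer ATGCAAAT (1.60% of promoters), the STAT or BCL6 type spacing TTCNNNGAA (7.02%) and the AP-1 type TGANTCA (6.75%) were searched on both strands and were in neither window. Base composition differed: 59.2% G and C bases with 14 CpG in S1pr2 and 36% with none in Rgs13, against medians of 52.4% and 6 CpG over all promoters. The promoter table had an entry for 8 of the 10 genes, without Rgs1 and Rgs14.

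Rgs2 (ENSMUSG00000026360, chr1:143999338-144004161, minus strand), known as an inhibitor of Gq signalling, had the largest called decrease of the 10 genes from naive cells with each stimulus. It had 281, 244 and 264 CPM in GC libraries, against 118, 92.3 and 77.7 CPM in naive libraries. Activated libraries had 2.23, 1.59 and 0.542 CPM with CD40, 3.19, 3.33 and 2.04 CPM with CpG, and 2.04, 2.76 and 0.832 CPM with LPS. The 3 states did not overlap, and every activated library was far under every naive one. Rgs2 rose in GC over naive cells by log2 1.46 ± 0.39 (adjusted p = 0.010) and was lower in activated than in naive cells by log2 -6.02 ± 0.49, -5.07 ± 0.46 and -5.69 ± 0.48 with CD40, CpG and LPS (edgeR adjusted p at most 2.4e-06). Against GC cells the folds were -7.48, -6.53 and -7.15.

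Rgs1 (ENSMUSG00000026358, chr1:144242296-144249242, minus strand), an RGS protein known to blunt chemokine responses of B cells, did not separate GC from naive cells. GC libraries had 21.3, 16.8 and 17.4 CPM, against 21.6, 19.7 and 6.31 CPM in naive libraries (log2 0.22 ± 0.64, edgeR adjusted p = 0.84). Activated libraries had 7.07, 3.12 and 3.25 CPM with CD40, 10.2, 4.36 and 2.60 CPM with CpG, and 13.5, 6.65 and 2.16 CPM with LPS. All 9 lay below the GC libraries, but naive library C lay within their range. The CD40 group was lower than naive (log2 -1.82 ± 0.67, adjusted p = 0.047) and than GC (log2 -2.04 ± 0.67, adjusted p = 0.033), in edgeR. The first call was lost without CD40 library B or C or naive library A or B (adjusted p of 0.15, 0.15, 0.13 and 0.10), and the second without CD40 library B or C or any GC library (adjusted p of 0.057 to 0.11). Over naive, CpG gave -1.47 ± 0.66 (adjusted p = 0.10) and LPS -1.09 ± 0.65 (adjusted p = 0.22). Over GC they gave -1.70 ± 0.66 (adjusted p = 0.069) and -1.31 ± 0.65 (adjusted p = 0.16), from edgeR. Without CpG library A the 2 CpG values passed (adjusted p of 0.048 and 0.032), and without naive library C that over naive did (0.047). With the letter as a replicate block, CpG and LPS passed over naive (adjusted p = 0.016 and 0.044) and over GC (0.0047 and 0.013). In naive libraries Rgs1 and Rgs2 were highest in A and lowest in C, as was the sum of the immediate early and handling genes given above. Single genes of that sum differed: Fos and Hspa1b were highest in naive library A, Fosb and Junb in B and Egr3 in C. The part of these genes in the Rgs1 or Rgs2 level was not tested.

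Rgs2, Rgs13 and Rgs1 lie side by side on the minus strand of chromosome 1, within 249.9 kb, with 134.5 kb between Rgs2 and Rgs13 and 64.9 kb between Rgs13 and Rgs1. Their 3 patterns differed: GC and naive cells both had Rgs2 and Rgs1, while Rgs13 was near 0 outside GC cells. All 3 were low or at 0 in culture. Rgs21, which lies beyond Rgs1, had 0 counts in all 15 libraries, and on the other side Uchl5, a deubiquitinase gene, averaged 44.0 to 48.4 CPM in activated, 127 CPM in GC and 26.5 CPM in naive groups.

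Rgs16 (ENSMUSG00000026475, chr1:153740349-153745468, plus strand), an RGS protein known to be induced by lymphocyte activation, was the one gene of the 10 with its highest level in culture. It measured 3.35, 1.40 and 3.60 CPM with CD40, 4.38, 1.44 and 4.30 CPM with CpG, and 2.77, 1.18 and 2.33 CPM with LPS. GC libraries had 0.127, 0.0546 and 0.0659 CPM (2 to 4 counts each), and naive libraries had 0, 0 and 0.139 CPM. Every activated library was above every sorted one, at a level that remained low. Against naive cells the log2 folds were 5.84 ± 1.23, 6.12 ± 1.24 and 5.43 ± 1.21 with CD40, CpG and LPS (edgeR adjusted p = 0.0021, 0.0016 and 0.0030). Naive library C held the 4 naive counts, and the fitted 9.42, 9.71 and 9.02 without it stand against 0 counts and give no size. Fitted on 6 libraries alone these calls were lost (adjusted p = 0.068, 0.054 and 0.080). Against GC cells the folds were 5.01, 5.29 and 4.60 (adjusted p = 0.0046, 0.0034 and 0.0073, edgeR). GC did not differ from naive in the test (log2 0.83 ± 1.15, edgeR adjusted p = 0.63), and without naive library C it passed (adjusted p = 0.023), with 8 GC counts in all against 0 naive counts. The antisense gene Gm28513 overlaps Rgs16 and had 0 counts.

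Rgs10 (ENSMUSG00000030844, chr7:128373621-128418758, minus strand), an RGS protein that acts on Gi-type subunits, had 48.5, 39.7 and 35.9 CPM in GC libraries, against 0, 0 and 8.46 CPM in naive libraries. Every GC library was above every naive one, yet the naive spread kept the test from passing (log2 3.88 ± 1.43, edgeR adjusted p = 0.053). It passed with DESeq2 size factors (adjusted p = 0.046), in DESeq2 (0.026), with the letter as a replicate block (0.033) and without naive library C, where the naive side has 0 counts and no fold is given (edgeR adjusted p = 3.4e-08). The 2 naive libraries at 0 were those with the fewest genes detected, and whether that bears on the zeros was not tested. Activated libraries held 5.07 to 12.2 CPM, below all GC libraries and overlapping naive library C. Activated over GC gave log2 -2.09, -2.64 and -2.61 (adjusted p = 0.28, 0.17 and 0.18, edgeR), which passed when each pair's 6 libraries were fitted alone (adjusted p = 0.00012, 1.3e-05 and 2.9e-05). Without naive library C each activated group was also called above naive, with 0 counts on the naive side. On the same strand Gm15503 overlaps Rgs10 and reached at most 0.593 CPM.

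Rgs14 (ENSMUSG00000052087, chr13:55369732-55384687, plus strand), which joins an RGS domain to a GoLoco motif that holds inactive Gi subunits, fell in the same order as Arhgef1. It had 59.6, 54.8 and 70.6 CPM in GC libraries, against 161, 173 and 137 CPM in naive libraries, and 15.3 to 23.9 CPM over the activated libraries. No library of one state overlapped another state. The log2 fold was -1.35 ± 0.19 for GC over naive (adjusted p = 6.7e-05) and -2.99 ± 0.20, -3.17 ± 0.20 and -3.10 ± 0.20 for CD40, CpG and LPS over naive (edgeR adjusted p at most 9.2e-08). Over GC the activated values were -1.64, -1.82 and -1.75.

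Counted together, 7 of the 10 genes were called in GC over naive cells, 5 higher and 2 lower, where 34.5% of all genes tested were called, 17.9% higher and 16.5% lower. Their median log2 fold was 1.15, beside 0.003 over all genes. CD40, CpG and LPS over naive gave 6, 6 and 7 calls, beside 34.1%, 33.6% and 33.7% of all genes, and medians of -1.03, -0.80 and -0.74 beside 0.17, 0.18 and 0.18. These were 2 higher and 4 lower, 3 and 3, and 3 and 4, where 19.8%, 19.7% and 19.5% of all genes were higher and 14% to 14.3% lower. Over GC, the activated groups gave 9, 8 and 8 calls, beside 28.4%, 28.9% and 28.1% of all genes (12.2% to 12.6% lower). Rgs16 alone was higher in each of the 3, and the other called genes were lower. The comparisons share the naive or the GC libraries.

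**Figure D2:**
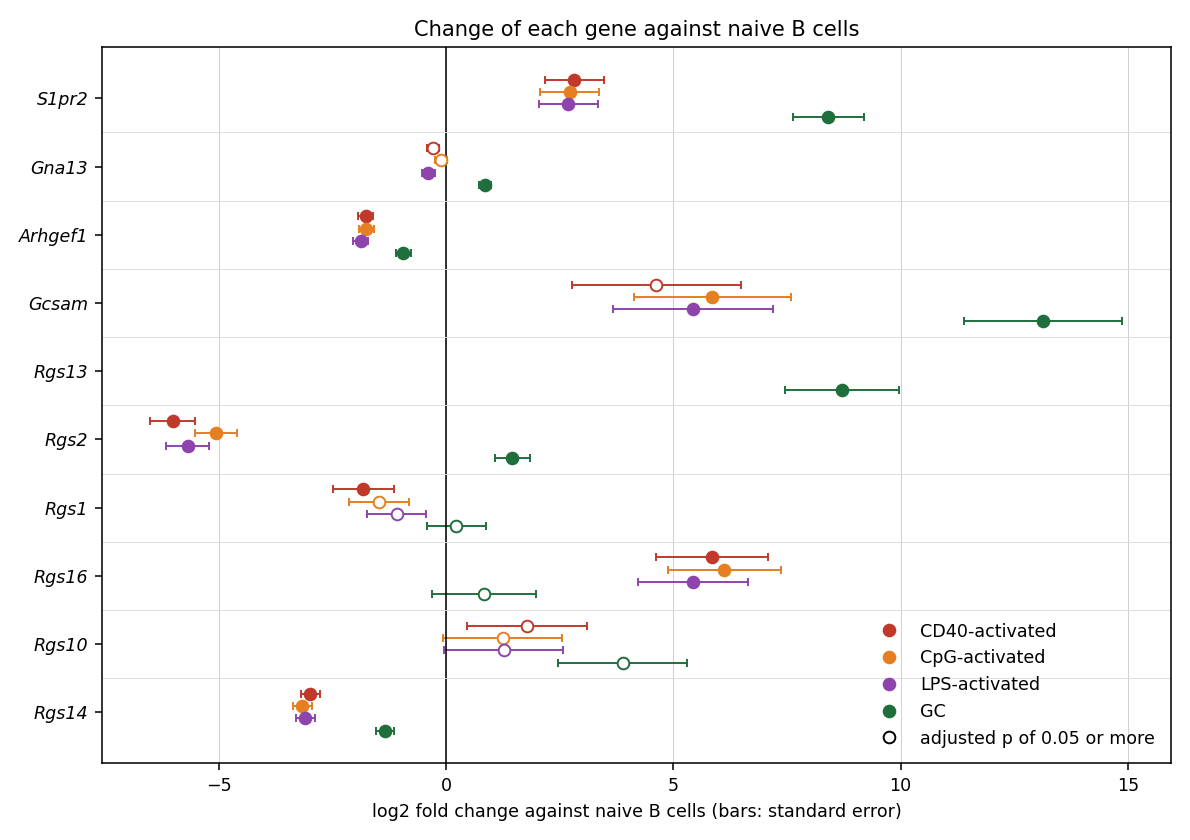
Log2 fold change against naive cells of each gene in CD40-, CpG- and LPS-activated and GC cells, with standard errors; open points did not reach an adjusted p below 0.05. Rgs13 in activated cells is left out because its counts are all 0; S1pr2 and Gcsam lie farther right in GC than in activated cells, and Rgs16 lies right in activated cells alone.

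Across the whole RGS family, 22 genes were in the table and 12 passed the filter. Summed per kb of annotated exon, RGS transcripts came to 43.8 to 49.9 CPM per kb in activated libraries, 404, 361 and 372 CPM per kb in GC libraries and 137, 122 and 143 CPM per kb in naive libraries. Rgs13 led in GC cells with 52.2% to 52.8% of that sum, followed by Rgs2 and Rgs19. Rgs19, an RGS protein of the group that acts on Gi-type subunits, led in all activated libraries with 64.1% to 70.8% and in naive libraries with 41.6% to 51.7%. When only basic transcript models set the exon length, Rgs14 led in naive libraries A and B instead (68.1 against 59.6, and 73.4 against 53.4 CPM per kb for Rgs19), and the leader was the same in the other 13 libraries.

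**Figure D3:**
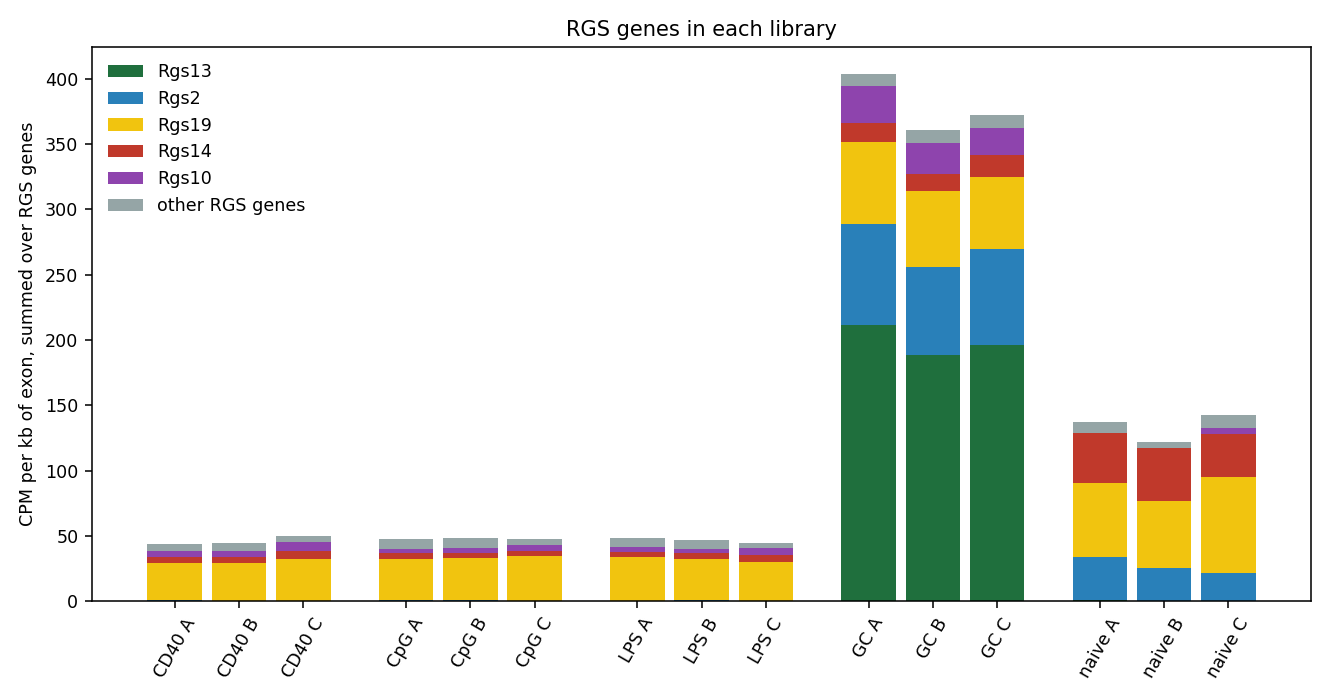
CPM per kb of exon, stacked over the RGS genes of each library; the grey segment holds Rgs1, Rgs16 and the RGS genes with no colour of their own. GC libraries reach 361 to 404, activated libraries stay at 43.8 to 49.9 and naive libraries at 122 to 143.

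Other RGS genes showed further patterns. Rgs19 averaged 67.0, 72.4 and 70.9 CPM with CD40, CpG and LPS, 131 CPM in GC cells and 135 CPM in naive cells, and was lower in culture than in either sorted population (log2 -0.86 to -1.02, edgeR adjusted p at most 0.00033). Rgs9, best known from photoreceptors and striatum, averaged 15.8 ± 4.4 CPM in GC cells and 0.104 ± 0.180 CPM in naive cells (SD, n = 3 each; log2 7.24 ± 1.31, edgeR adjusted p = 0.00059). Rgs18, known from platelets, averaged 5.61 CPM in GC and 6.24 CPM in naive cells and had at most 0.396 CPM in any activated library. Its naive values were uneven, at 6.65, 0 and 12.1 CPM in libraries A, B and C. The 6 platelet markers, which include Rgs18, summed to 2.04 to 9.23 CPM in activated, 6.49 to 7.51 CPM in GC and 7.89 to 15.1 CPM in naive libraries. Of these, Pf4, Gp9, Gp1bb and Ppbp had 0 counts in GC libraries, Gp1bb and Ppbp had 0 counts in naive libraries, and Itga2b averaged at least 1 CPM in both populations. In naive libraries A, B and C, Pf4 had 0, 5.10 and 0 CPM and Itga2b had 1.2, 6.6 and 3.0 CPM. The part of platelets in the Rgs18 level was not tested. Gpsm2, a GoLoco protein of spindle orientation, averaged 10.2, 12 and 9.22 CPM with CD40, CpG and LPS, 86.9 CPM in GC and 0.254 CPM in naive cells (GC over naive log2 8.46 ± 1.01, edgeR adjusted p = 3.1e-05). Of the 16 genes tested in this list of other RGS and GoLoco genes, 3 rose and 4 fell in GC over naive cells, beside 17.9% and 16.5% of all genes.

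Among the other S1P receptors, S1pr1, the egress receptor, averaged 4.76, 4.69 and 5.03 CPM with CD40, CpG and LPS, 4.79 CPM in GC and 244 CPM in naive cells (each over naive log2 -5.59 to -5.70, edgeR adjusted p at most 0.00013). S1pr4 averaged 68.9, 66.4 and 61.0 CPM with the 3 stimuli, 22.7 CPM in GC and 153 CPM in naive cells. S1pr1 and S1pr2 thus stood opposite to each other in the sorted populations, while activated cells were low in both. The S1P transporter gene Spns2 averaged 1.15 CPM in GC and 43.3 CPM in naive cells. Without S1pr2, 14 genes of S1P reception and metabolism were tested, and GC over naive had 1 higher and 6 lower (median log2 -0.76), beside 17.9% and 16.5% of all genes.

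Downstream of GNA13, 29 other genes of the RHOA arm were tested, and 6 rose and 9 fell in GC over naive cells (median -0.05), beside 17.9% and 16.5% of all genes. Rhoa averaged 276, 295 and 284 CPM with CD40, CpG and LPS, 462 CPM in GC and 319 CPM in naive cells, with GC over naive at log2 0.54 ± 0.18 (edgeR adjusted p = 0.030). Cfl1, the actin-severing cofilin at the end of this arm, rose in GC cells (2992 CPM, against 1011 CPM in naive cells), as did Akt1 (369 against 122 CPM). Rhob (8.67 CPM in GC, 219 CPM in naive cells), the kinase gene Limk1 (0.909 and 20.6 CPM) and Rdx, a membrane linker of the ezrin family (9.27 and 68.0 CPM), fell. Limk1 and Rdx were at 31.4 to 32.8 and 98 to 100 CPM in the activated groups, above GC cells with each stimulus (log2 at least 5.11 and 3.40). Rhoh averaged 47.5, 53.9 and 46.3 CPM with CD40, CpG and LPS, 517 CPM in GC and 302 CPM in naive cells. Over naive, the activated groups had 3, 2 and 2 of the 29 higher and 12, 12 and 14 lower, and for CD40, as an example, 19.8% of all genes were higher and 14.3% lower.

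Of the other G protein subunits, 21 were tested, and GC over naive had 7 higher and 3 lower, beside 17.9% and 16.5% of all genes. Gnai2, the main Gi subunit of lymphocytes, averaged 841 to 908 CPM in the activated groups, 1204 CPM in GC and 906 CPM in naive cells and did not pass between GC and naive (edgeR adjusted p = 0.090). Gna12, the close relative of Gna13, averaged 50.6 CPM in GC and 30.7 CPM in naive cells (log2 0.72 ± 0.22, edgeR adjusted p = 0.022). Gng12 averaged 66.8 to 75.8 CPM in the activated groups, 76.2 CPM in GC and 5.14 CPM in naive cells. Gnaz, a Gi-class subunit, averaged 71.9 to 84.0 CPM in the activated groups, 13.5 CPM in GC and 0.403 CPM in naive cells. Both were called higher than naive in GC cells and with every stimulus.

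Of 20 B cell chemoattractant and inhibitory receptors other than S1pr2, 14 fell and none rose in GC over naive cells (median log2 -3.86), beside 16.5% and 17.9% of all genes. Gpr132, a receptor that couples to the G13 class, averaged 1.47 CPM in GC and 125 CPM in naive cells, and 221 to 240 CPM in the activated groups. Ccr7, the T zone chemokine receptor, averaged 0.381 CPM in GC and 235 CPM in naive cells, and 65.7 to 78.2 CPM in the activated groups. Activated over GC, 11, 10 and 11 of the 20 were higher and 1 lower with CD40, CpG and LPS, beside 15.8% to 16.4% of all genes higher and 12.2% to 12.6% lower. Among receptor kinases and arrestins, 7 were tested, and none rose and 3 fell in GC over naive cells (17.9% and 16.5% of all genes), with Grk3 (0.391 and 19.0 CPM) and Arrb1 (1.80 and 54.0 CPM) the largest. Of the 15 partners of GCSAM and actin regulators, 1 was higher and 2 lower in GC over naive cells (17.9% and 16.5% of all genes), and 9 were lower with each stimulus over naive cells (14% to 14.3% of all genes). The kinase gene Syk averaged 168 to 177 CPM in the activated groups, 817 CPM in GC and 1208 CPM in naive cells, and the GCSAM partner gene Myo1e averaged 73.0 to 78.4, 271 and 198 CPM in the same groups.

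Between the titled stimuli none of the 10 genes passed the edgeR test in any of the 3 pairs, where 0 of 17144 genes (0%) passed in each. At an unadjusted p below 0.05 there was 1 gene of the 10, Rgs2 in CpG over CD40 (log2 0.95 ± 0.43), and none in the other pairs. DESeq2 and a fit of the 9 activated libraries with the letter as a replicate block also called none of the 10. Of all genes, DESeq2 called 0.0037% in each pair and the blocked fit 0.172% to 0.286%. In an F test over the 9 libraries that kept letter and stimulus together, no gene of the 9 tested passed for stimulus, beside 0.502% of all genes, with Gna13 and Rgs10 under 0.05 before adjustment.

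The letters told the activated libraries apart. In the same F test 7 of the 9 genes passed for letter, beside 44.0% of all genes: S1pr2, Gna13, Arhgef1, Gcsam, Rgs1, Rgs2 and Rgs16, with the smallest edgeR adjusted p for Gcsam (3.2e-06) and Rgs1 (1.5e-05). Letter A over B was called for Gcsam (log2 4.20), Rgs1 (1.13) and Rgs16 (1.36), 3 of 9 genes, beside 31.1% of all genes in either direction and 16.6% higher in A. Letter A over C was called for Gcsam (1.95), Rgs1 (1.88), Rgs2 (1.28) and Arhgef1 (0.21), 4 of 9, beside 23.4% in either direction and 11.9% higher in A. Letter B over C was called for 7 of 9, beside 34.8% (17.3% higher and 17.5% lower in B): Rgs2 (1.27), Rgs1 (0.74), Gna13 (0.26) and Arhgef1 (0.18) were higher in B, and Gcsam (-2.26), Rgs16 (-1.31) and S1pr2 (-0.73) were lower in B. Library C had the most S1pr2 and the least Rgs2 under each stimulus, and library B had the least S1pr2, Gcsam and Rgs16. Leaving out 1 activated library ended some of these calls, and left 1 to 4 genes called in A over C and 2 to 5 in B over C. The share of all genes called was also lower in these fits, at 16.9% to 19.5% in A over C and 25.7% to 30.5% in B over C. The calls of Gcsam and Rgs1 in A over B, Rgs1 in A over C and Gcsam in B over C were kept in every such fit, with the highest adjusted p at 0.047 for Rgs1 in A over B.

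Cell markers moved with the letters too. The 5 GC markers other than the 10 genes summed to 1566 to 1645 CPM in the A libraries, 993 to 1129 CPM in B and 1149 to 1265 CPM in C, the same order as Gcsam. All 7 plasma cell markers summed to 2839 to 2973 CPM in A, 2016 to 2148 CPM in B and 4781 to 6647 CPM in C. Of 10 myeloid markers, 1 or 2 averaged 1 CPM or more in an activated group. The 10 summed to 21.4 to 26.3 CPM in A, 3.48 to 5.92 CPM in B and 5.89 to 6.56 CPM in C. Most of this was Adgre1, at 19.2 to 23.7 CPM in A, 2.81 to 4.30 CPM in B and 3.79 to 4.46 CPM in C. Csf1r, C1qb and C1qc were at 0 or near it. Naive follicular markers summed to 1379 to 1443 CPM in A, 587 to 648 CPM in B and 500 to 538 CPM in C. The 6 dendritic cell markers, Flt3 among them, summed to 76.5 to 95.9 CPM in A, 210 to 249 CPM in B and 69.1 to 94.8 CPM in C. The part of these markers in the differences between letters was not tested.

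**Figure D4:**
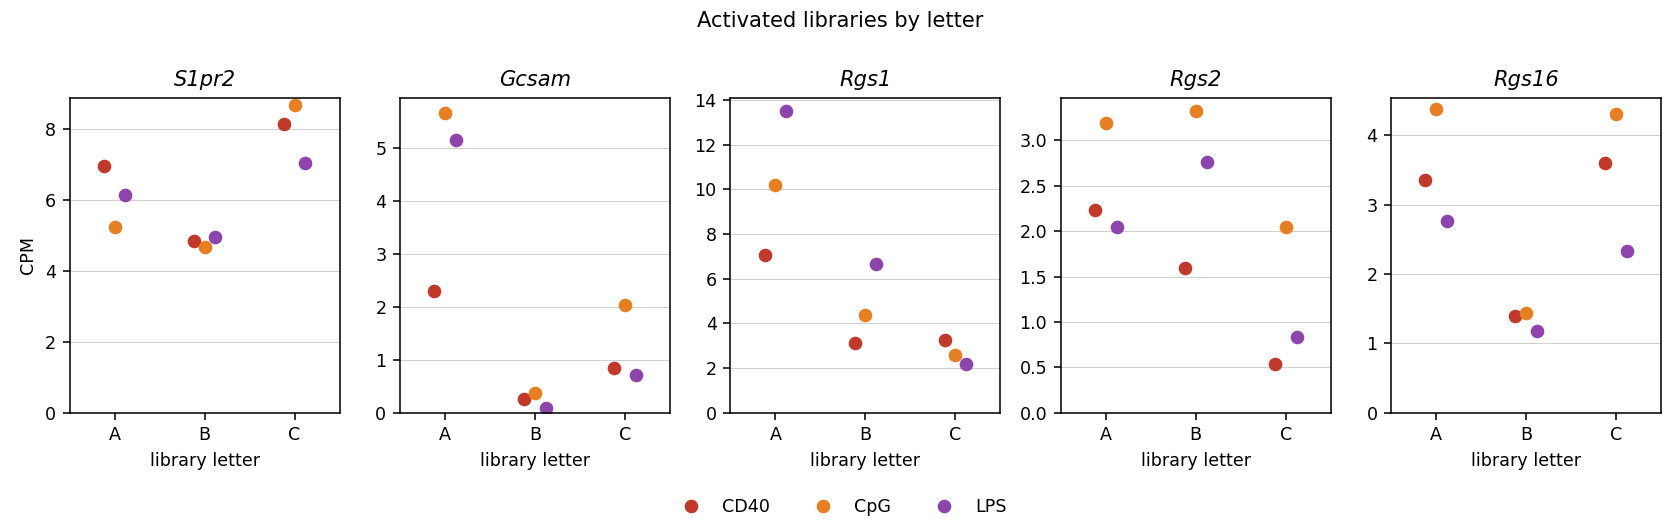
CPM of S1pr2, Gcsam, Rgs1, Rgs2 and Rgs16 in the 9 activated libraries by letter, with colour for the stimulus; each point is 1 library. S1pr2 runs from 4.66 to 8.67 CPM with letter C highest, and Gcsam from 0.0811 to 5.67 CPM with letter A highest under every stimulus.

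Genes whose log2 CPM followed each of the 10 most closely over the 15 libraries were listed as a description, since the points share 5 groups. S1pr2 was closest to Smc4, a condensin subunit gene (Pearson r = 0.994), and to Mybl1 (0.990), a transcription factor gene of GC B cells that averaged 462 CPM in GC and 1.45 CPM in naive cells. Gcsam was closest to Sh3bgrl2 (0.987) and Rgs13 to Amz2 (0.986) and Tox2 (0.986), the last at 29.7 CPM in GC and 0.481 CPM in naive cells. Rgs16 was closest to Nptn (0.984) and Xbp1 (0.979), the secretory transcription factor gene, which averaged 1162 to 1242 CPM in the activated groups, 168 CPM in GC and 109 CPM in naive cells. Rgs1 had the loosest match, Cxcr4 (0.903), the chemokine receptor gene. Rgs14 was closest to Siglecg (0.984), Arhgef1 to Sirt7 (0.988), Rgs2 to Smim14 (0.985), Rgs10 to B9d1 (0.981) and Gna13 to Rhog (0.974).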

How the data were processed

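RNA was sequenced from 15 libraries of mouse splenic B cells. Per the submitters' processing notes, reads were aligned with STAR 2.7.10a to mm10/GRCm38 and counted with featureCounts 2.0.6, and DESeq2 is named. Strand, multi-mapping and pairing settings are not given in the sources used here. The deposited table holds raw counts per Ensembl gene, and all 15 columns were matched to samples through labels. Symbols and coordinates came from GENCODE M21 (GRCm38), which held 54809 of 54838 IDs. Totals were 25397624 to 36272197 counts, so spread between libraries, not depth, limits abundant genes. Of 86799 counts from 2 to 50, 81.0% were even, so a fragment may have been counted as 2 reads, and floors of 3 counts cover counting error only and may be too narrow.

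From these counts, edgeR 4.0.16 in R 4.3.3 (TMM, filterByExpr, robust quasi-likelihood, 1 mean per group, all 15 libraries, no block) tested 10 group comparisons, two-sided, with Benjamini-Hochberg adjustment over all 17144 genes and a threshold of 0.05. Letters and stimuli were tested in the 9 activated libraries with both terms (15727 genes). CPM use TMM-scaled totals. Similar genes were ranked by Pearson r of log2 CPM with a prior count of 2. Alternatives were DESeq2 1.42.0, its size factors, no filter, the 2 groups alone, the letter as a block, no stimulus term, and leaving out each library. Same-letter libraries deviated together among activated groups (r of 0.36 to 0.50 in 9 pairs) and not with GC or naive libraries (r of -0.07 to 0.08 in 21 pairs), so letters were treated as pairing the activated groups.

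All 10 genes are named in each comparison. From each gene list, genes were eligible for naming if called in GC over naive or with 2 stimuli over naive and at least 10 CPM in a group, up to 4 per direction by fold, plus 8 named receptors, subunits and RGS genes. Up to 3 similar genes were listed per gene. Uchl5, Rgs21, Lck, Cd3e, Cd8a, Itga2b and other cell markers fall outside that rule and were named after their values were seen. The 10 genes and all lists were chosen with earlier results of these data known.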

Additional observations from a re-analysis of the deposited data

How the results depend on the processing

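Of 1658 single-gene values under the alternatives, 1535 kept their direction and their side of the threshold, 79 lost the call, 30 gained one, 14 uncalled values moved and 0 reversed. Fitting only the 6 libraries of the 2 groups compared left 3 of the genes called with each of CD40, CpG and LPS over naive, against 6, 6 and 7 in the fit of all 15 libraries. The share of all genes called was also lower, at 20.6%, 21.5% and 22.9% against 34.1%, 33.6% and 33.7%. With fewer libraries, this fit tested 8, 9 and 8 of the 10 genes. Without a stimulus term, 2 genes were called in letter A over C, against 4 (the cause was not tested), beside 21.5% of all genes against 23.4%. Leaving out 1 library gave 1 to 4 calls in A over C and 2 to 5 in B over C, against 4 and 7. Of all genes, 16.9% to 19.5% and 25.7% to 30.5% were then called, against 23.4% and 34.8%. Counts in all other comparisons stayed within 1.5 times. The letter as a replicate block in 15 libraries, a pairing that the GC and naive libraries do not show, gave 8 genes called in GC over naive, 7, 7 and 8 in CD40, CpG and LPS over naive, and 9, 9 and 9 over GC. A count of 0 allows up to 0.0819 to 0.122 CPM in a library (3 counts), which limits what can be said of genes near 0.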
